A study of Mus musculus with 12 samples.

Results

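The 9 genes described here encode 6 bone morphogenetic proteins (Bmp2, Bmp4, Bmp5, Bmp6, Bmp7 and Bmp10) and the 3 transforming growth factors beta (Tgfb1, Tgfb2 and Tgfb3) of the mouse. They were taken by symbol from a table of 26190 genes, and each symbol matched 1 row. RNA was sequenced from 12 libraries in 4 groups of 3. The atria and ventricles were dissected from hearts of C57BL/6 embryos at E11.5 (E11.5H). The atrium-like and ventricle-like parts were cut from heart organoids (HOs) at day 13 of culture. The HOs were grown from embryoid bodies of mouse embryonic stem cells on a laminin-entactin gel with the growth factor FGF4, and BMP4 protein, the GSK3 inhibitor BIO and the cytokine LIF were added late in the culture. Both HO parts had therefore received BMP4 protein and the hearts had not, so tissue and treatment cannot be told apart. The labels give C57BL/6 for all samples, whereas the methods of the study name stem cell lines of C57BL/6 and of a C57BL/6 x JF1 cross without tying a line to a library.

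BMP and TGF-beta ligands are secreted dimers that bring together type I and type II receptor kinases. BMP receptors mainly activate SMAD1, SMAD5 and SMAD9, TGF-beta receptors mainly SMAD2 and SMAD3, and both use SMAD4 to reach their target genes. In the embryonic heart, Bmp2 is known for patterning the atrioventricular canal, Bmp4 for the outflow tract, Bmp10 for growth of the trabecular myocardium, and the Tgfb genes for the change of endocardium into cushion mesenchyme.

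Levels are given in FPKM, fragments scaled to transcript length and sequencing depth, which may be compared between genes, and differences as log2 fold changes from edgeR's quasi-likelihood test on the counts. A gene was called when its Benjamini-Hochberg adjusted p was under 0.05 and its log2 fold change was beyond 1 in either direction. Libraries held 23971258 to 30540993 fragments. The HO libraries stood apart from the hearts and from one another. The mean log2 CPM (counts scaled to library size) of 16 cardiomyocyte markers was 9.82 to 10.11 in atria and 10.48 to 10.59 in ventricles, against 5.38 to 6.97 (atrium-like) and 7.11 to 8.69 (ventricle-like) in HOs, and none of the 16 was at 0 in any library. In the same order of groups, 10 endothelial and endocardial markers were at 5.81 to 5.98, 5.84 to 5.94, 1.26 to 4.59 and 0.70 to 4.06. A list of 12 liver and visceral endoderm markers was at -1.08 to -0.07 and -1.24 to -0.46 in the hearts and at 4.83 to 9.06 and 0.76 to 7.82 in the HO parts. In these bulk samples fewer cells of a type and less RNA per cell cannot be told apart.

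The region around the annotated start site is shown for 3 ligands that were called between HOs and hearts in at least 1 comparison and were present in the RefSeq promoter table (GRCm38.p6, the build of the files). Each run covers 250 bases before to 50 after the start. Capitals mark matches, on either strand, to the TATA box (TATAAA), the GATA motif (GATAAG), the T-box motif (GGTGTGA), the NKX2-5 motif (AAGTGG), the BMP-SMAD motif (GGCGCC) or the SP1 motif (GGGCGG).
Bmp10, chr6:87428744-87429043, + strand: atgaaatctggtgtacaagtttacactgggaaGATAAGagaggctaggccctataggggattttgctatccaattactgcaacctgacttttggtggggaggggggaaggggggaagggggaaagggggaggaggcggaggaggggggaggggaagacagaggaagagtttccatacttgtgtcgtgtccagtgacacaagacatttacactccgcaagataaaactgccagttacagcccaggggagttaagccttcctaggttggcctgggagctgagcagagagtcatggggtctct
Bmp5, chr9:75775115-75775414, + strand: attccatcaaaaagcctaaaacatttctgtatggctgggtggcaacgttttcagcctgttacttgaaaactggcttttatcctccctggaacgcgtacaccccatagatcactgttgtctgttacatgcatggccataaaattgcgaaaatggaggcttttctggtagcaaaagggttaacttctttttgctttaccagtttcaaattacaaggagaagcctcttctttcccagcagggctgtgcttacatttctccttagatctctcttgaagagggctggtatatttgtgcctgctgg
Tgfb1, chr7:25686752-25687051, + strand: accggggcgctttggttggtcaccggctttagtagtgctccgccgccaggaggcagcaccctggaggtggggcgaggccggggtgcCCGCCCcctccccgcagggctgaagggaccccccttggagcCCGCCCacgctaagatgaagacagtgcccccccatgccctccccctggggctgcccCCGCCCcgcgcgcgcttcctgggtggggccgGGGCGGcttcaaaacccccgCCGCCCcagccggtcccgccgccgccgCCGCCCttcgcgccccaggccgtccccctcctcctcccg
The 3 windows differed in base composition. GC content was 53.0% for Bmp10, 43.3% for Bmp5 and 77.0% for Tgfb1, against a median of 52.7% over 32851 promoters (quartiles 45.7% and 61.7%). The Bmp10 window held 1 GATAAG, 218 bases before the start, a sequence present in 7.44% of all promoters of this length. The Tgfb1 window held 6 GGGCGG, a sequence present in 35.7% of promoters. The Bmp5 window held none of the 6 capitalised motifs. The E-box (CANNTG) and the SMAD motif (CAGAC), in 72.3% and 49.6% of promoters, were searched too but not capitalised. A CAGAC match lay at position -134 of the Bmp5 window, on the minus strand. These are matches of letters and not measured binding. The table matched 6 of the 9 ligands, and Bmp2, Bmp7 and Tgfb3 were not among them.

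Bmp7 was the most abundant of the 9 ligands in every heart library. It stood at 51.1, 46.3 and 44.9 FPKM in atria and at 52.4, 58.9 and 57.4 FPKM in ventricles. Its share of the summed FPKM of the 9 genes was 31.5% ± 1.17 in atria and 39.2% ± 2.26 in ventricles (SD, n = 3). Bmp4 came next, at 30 ± 1.77 FPKM in atria and 21.1 ± 6.03 in ventricles. The sum of all 9 was 151 ± 6.06 FPKM in atria and 143 ± 6.7 in ventricles, and the 6 BMP ligands together exceeded the 3 TGF-beta ligands 2.22 to 4.01 times in the 6 heart libraries. The HO libraries had no such common leader. Bmp2 was the highest ligand in atrium-like replicates 1 and 3, Tgfb3 in atrium-like replicate 2, and Tgfb1, Tgfb2 and Bmp4 in ventricle-like replicates 1, 2 and 3. The sum was 62.3 ± 21.9 FPKM in atrium-like and 79.2 ± 9.99 in ventricle-like parts, and the ratio of BMP to TGF-beta ligands ran from 0.447 to 3.57 across the atrium-like libraries and from 0.35 to 1.52 across the ventricle-like ones.

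**Figure D1:**
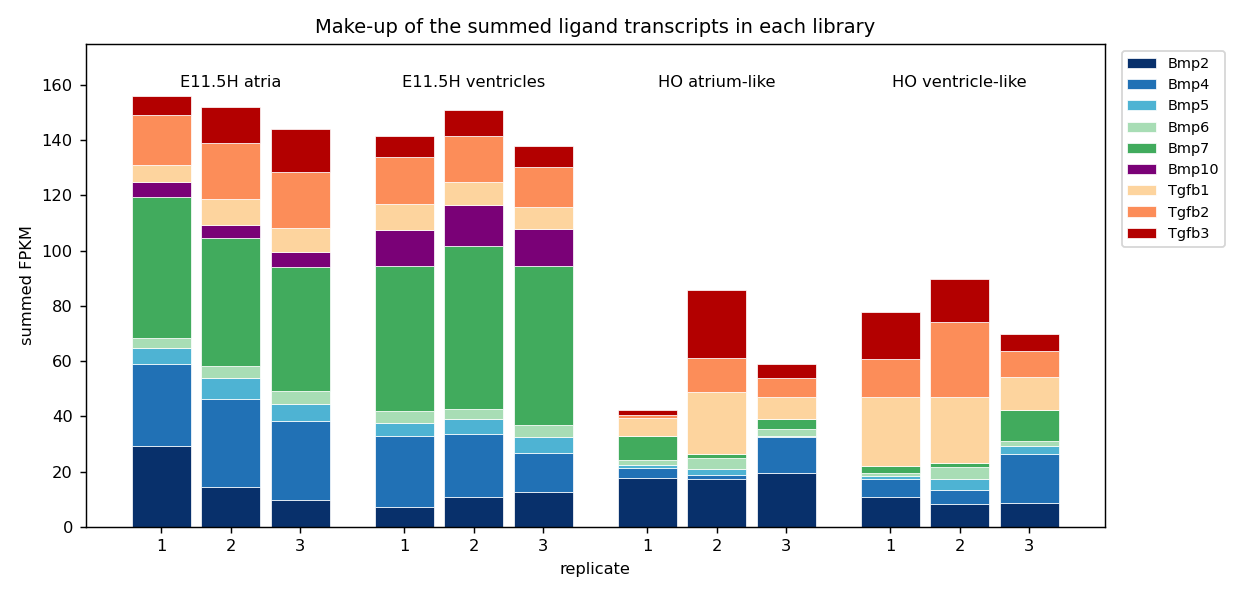
Summed FPKM of the 9 ligands in each library, stacked by gene, with replicates on the horizontal axis and the 4 groups side by side. Bmp7 makes up 31.5% and 39.2% of the stack on average in atria and ventricles, while the HO stacks are shorter and differ in make-up between replicates.

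Between the chambers of E11.5H, Bmp10 was the only ligand called with the TMM scaling of each pair of groups. It stood at 5.46, 4.88 and 5.23 FPKM in atria and at 13.3, 15.1 and 13.6 FPKM in ventricles, and every ventricular library was above every atrial one. Its log2 fold change, atria against ventricles, was -1.50 (SE 0.15, edgeR adjusted p = 1.59e-04). Among all 14536 genes tested 4.9% were called, so 1 of 9 ligands is near the background. When all 12 libraries shared 1 estimate of spread the log2 fold change was -1.51 and the call was lost (adjusted p = 0.457). Scaled to the cardiomyocyte markers it was -0.90 and under the fold limit (adjusted p = 0.00154), while Bmp2 (1.32), Bmp4 (1.05) and Tgfb3 (1.08) were called higher in atria.

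Bmp7 was also higher in ventricles without overlap between the groups, but the difference was small. Its log2 fold change of -0.32 (SE 0.08, edgeR adjusted p = 0.0314) was inside the limit of 1 and turned to 0.29 when scaled to the cardiomyocyte markers. Bmp4 and Tgfb2 had higher values in every atrial library than in any ventricular one. Bmp4 stood at 29.7, 31.9 and 28.4 FPKM against 26, 22.8 and 14.3, and its log2 fold change of 0.45 did not pass the test (edgeR adjusted p = 0.109). Tgfb2 stood at 18, 20.2 and 20.1 FPKM against 17.1, 16.6 and 14.4, and its log2 difference was 0.21 (edgeR adjusted p = 0.113). Bmp2 varied most among atria, at 29.2, 14.4 and 9.88 FPKM, and overlapped the ventricles at 7.02, 10.7 and 12.5. Its log2 fold change of 0.75 (SE 0.35, edgeR adjusted p = 0.207) was 0.18 without atria replicate 1, which decided its size.

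Between the parts of HOs no ligand was called, and none of the 15703 genes tested was (0% of them). At an unadjusted edgeR p under 0.05 there were 889 genes, 1 of them a ligand, and DESeq2 called 56 genes. The ligand was Bmp2. It stood at 17.5, 17.2 and 19.4 FPKM in atrium-like parts and at 10.7, 8.39 and 8.73 FPKM in ventricle-like parts. The groups did not overlap, and the Bmp2 values were closer together within each HO group than those of any other ligand with more than 1 fragment. The log2 fold change was 1.15 (SE 0.21, 95% interval 0.63 to 1.66, edgeR adjusted p = 0.75), and DESeq2 gave an adjusted p of 0.00311. The intervals of the other 7 ligands tested all included 0 and were wide, from -2.17 to 2.49 for Bmp7 and from -3.17 to 0.68 for Tgfb2, so values anywhere within them were not distinguished from no difference. Bmp10 was too low to be tested.

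**Figure D2:**
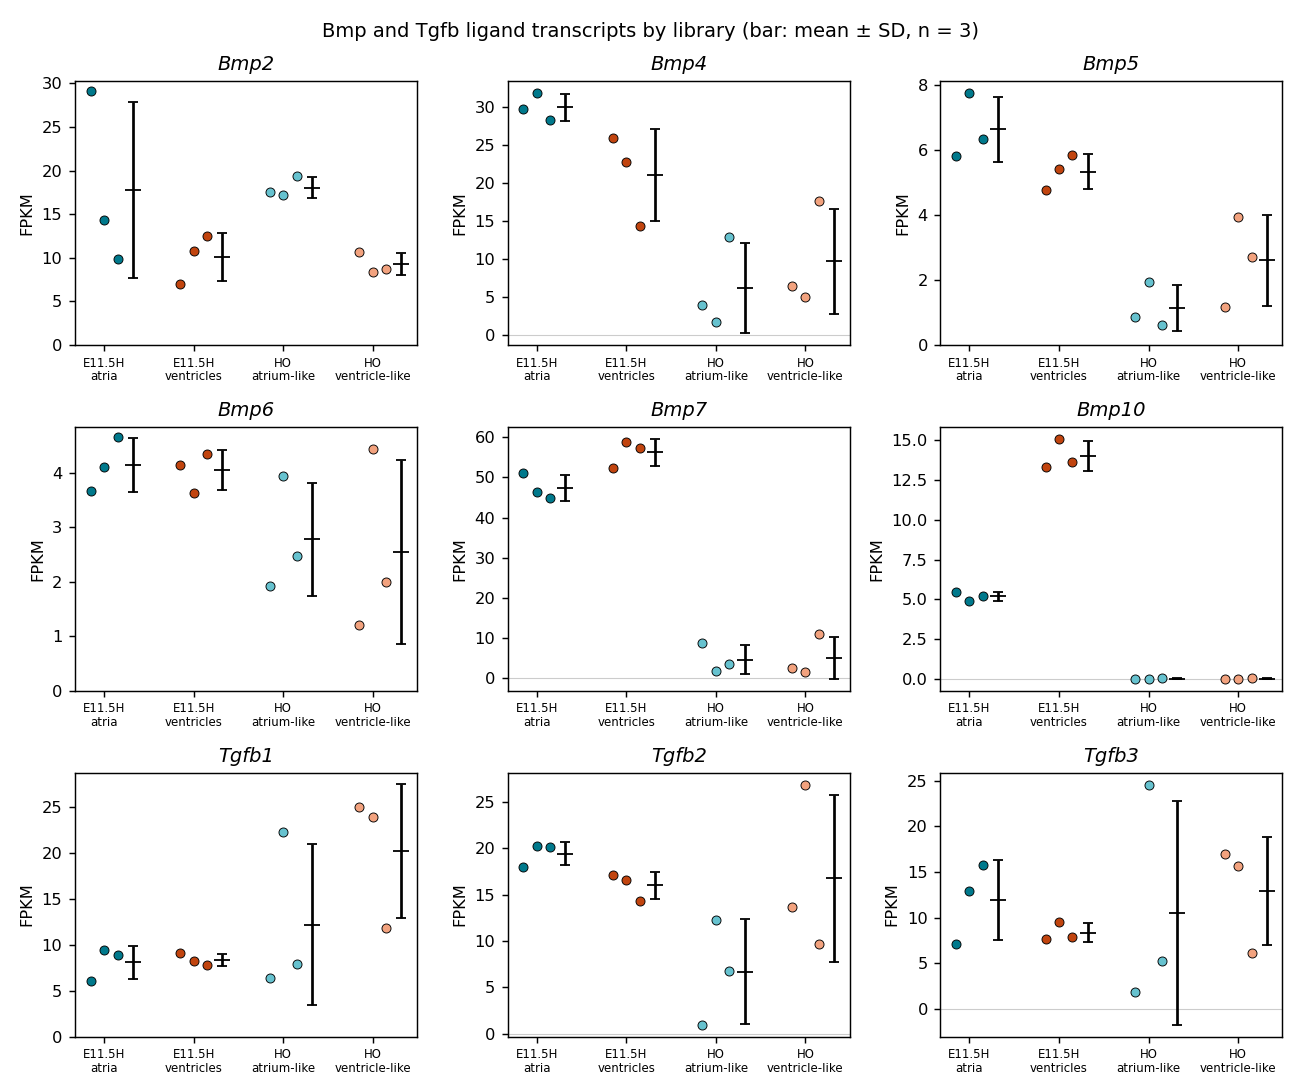
FPKM of each ligand in the 12 libraries, 1 panel a gene, with points for libraries and a bar for the mean ± SD (n = 3) beside each group. Bmp5, Bmp7 and Bmp10 are separated between hearts and HOs, Bmp10 differs between the heart chambers, and the HO points of Tgfb1, Tgfb2 and Tgfb3 are widely spread.

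Against the hearts, HOs held almost no Bmp10 and little Bmp7. In atrium-like parts 3 of 9 ligands were called, all lower than in atria, where 24.8% of 15418 genes were called in either direction, 8.81% lower and 16% higher. In ventricle-like parts 2 of 9 were called lower and 1 higher than in ventricles, where 18.9% of 15094 genes were called, 7.35% lower and 11.6% higher. Scaling to the cardiomyocyte markers instead shifted the fold changes of all genes upward by a median of 3.75 and 2.86 on the log2 scale. Bmp5 and Bmp7 turned sign under it in atrium-like parts, and Bmp10 did not in either. The median log2 fold change of the 9 ligands was -1.45 in the first comparison and -0.77 in the second, beside 0.06 and 0.09 over all genes tested.

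Bmp10 was nearly undetected in HOs. The 3 atrium-like libraries held 1 fragment in all and the 3 atrial libraries 699, a ratio of 641 after scaling for depth (95% exact binomial interval 115 to 25345, covering counting error only). The 3 ventricle-like libraries also held 1 fragment, against 1744 in the ventricles, a ratio of 1771 (317 to 69971). Both differences were called by edgeR (adjusted p = 0.00275 and 0.00118), also without any 1 library. Scaled to the cardiomyocyte markers instead of to all genes, Bmp10 was still called lower in both comparisons (adjusted p = 0.00196 and 5.47e-04).

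Bmp7 was called lower in both HO parts. In atrium-like parts it stood at 8.71, 1.71 and 3.58 FPKM, a log2 fold change of -3.09 against atria (SE 0.66, edgeR adjusted p = 0.0172). In ventricle-like parts it stood at 2.57, 1.6 and 11.1 FPKM, a log2 fold change of -3.55 against ventricles (SE 0.76, edgeR adjusted p = 0.0193). The highest HO library was at 11.1 and the lowest heart library at 44.9 FPKM. The call was kept in 2 of the 6 fits that left out 1 library in each comparison, while the log2 fold change stayed between -4.06 and -2.66 and between -4.87 and -3.11. Scaled to the cardiomyocyte markers, which were themselves lower in HOs, the value for the atrium-like parts turned to 1.10 (adjusted p = 0.225) and that for the ventricle-like parts was -1.21 (adjusted p = 0.0294).

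Bmp5, a close relative of Bmp7, was called lower by edgeR in atrium-like parts and not in ventricle-like parts, where DESeq2 called it. It stood at 0.86, 1.93 and 0.60 FPKM against 5.8, 7.74 and 6.33 (log2 fold change -2.42, SE 0.43, edgeR adjusted p = 0.00994), and the call held without any 1 library but turned to 1.33 (adjusted p = 0.082) with the cardiomyocyte scaling. In ventricle-like parts it stood at 1.16, 3.92 and 2.72 FPKM against 4.75, 5.4 and 5.83, without overlap, with a log2 difference of -1.14 (edgeR adjusted p = 0.0918, DESeq2 adjusted p = 0.0392). The difference between these 2 changes was itself not called (interaction -1.29, SE 0.62, edgeR adjusted p = 0.447). Bmp4 transcripts stood at 3.94, 1.66 and 12.9 FPKM in atrium-like parts, all under the atria, with a log2 difference of -2.08 (edgeR adjusted p = 0.0691, DESeq2 adjusted p = 0.0107). In ventricle-like parts Bmp4 stood at 6.48, 4.92 and 17.6 FPKM and overlapped the ventricles (log2 fold change -1.20, edgeR adjusted p = 0.128). The BMP4 protein added to the culture leaves no reads in this assay.

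Bmp2 and Bmp6 did not pass the test in either comparison. The log2 fold change of Bmp2 was 0.19 against atria (95% interval -0.79 to 1.17) and -0.22 against ventricles (-0.84 to 0.41), the narrowest interval of the BMP ligands in the latter. Bmp6 ranged from 3.63 to 4.65 FPKM in hearts and from 1.2 to 4.43 in HOs, with log2 fold changes of -0.44 and -0.77 (edgeR adjusted p = 0.295 and 0.265). The Bmp6 row is uncertain. Its 3′ end overlaps the oppositely transcribed Txndc5 by 44 bases, and the row also lists transcripts of Txndc5. That gene stood at 47.5 to 137 FPKM, and the use of strand in counting is not given in the sources used here.

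Of the TGF-beta ligands, only Tgfb1 was called, higher in ventricle-like parts than in ventricles. It stood at 25, 23.9 and 11.8 FPKM against 9.08, 8.22 and 7.81, with no overlap (log2 fold change 1.18, SE 0.30, edgeR adjusted p = 0.0305). The call was kept in 1 of 6 fits that left out a library, the one without ventricle-like replicate 3, with log2 fold changes of 0.96 to 1.43 over the 6. In atrium-like parts Tgfb1 stood at 6.38, 22.3 and 7.92 FPKM and overlapped the atria at 6.04, 9.39 and 8.91 (log2 fold change 0.70, edgeR adjusted p = 0.268). Tgfb3 stood at 1.86, 24.6 and 5.22 FPKM in atrium-like and 17, 15.7 and 6.14 FPKM in ventricle-like parts, on both sides of the hearts at 7.13 to 15.7. Tgfb2, at 14.4 to 20.2 FPKM in hearts, ran from 1 to 26.9 FPKM over the 6 HO libraries. Its log2 fold changes were -1.45 in atrium-like parts (edgeR adjusted p = 0.162) and -0.03 in ventricle-like parts (95% interval -0.89 to 0.82).

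**Figure D3:**
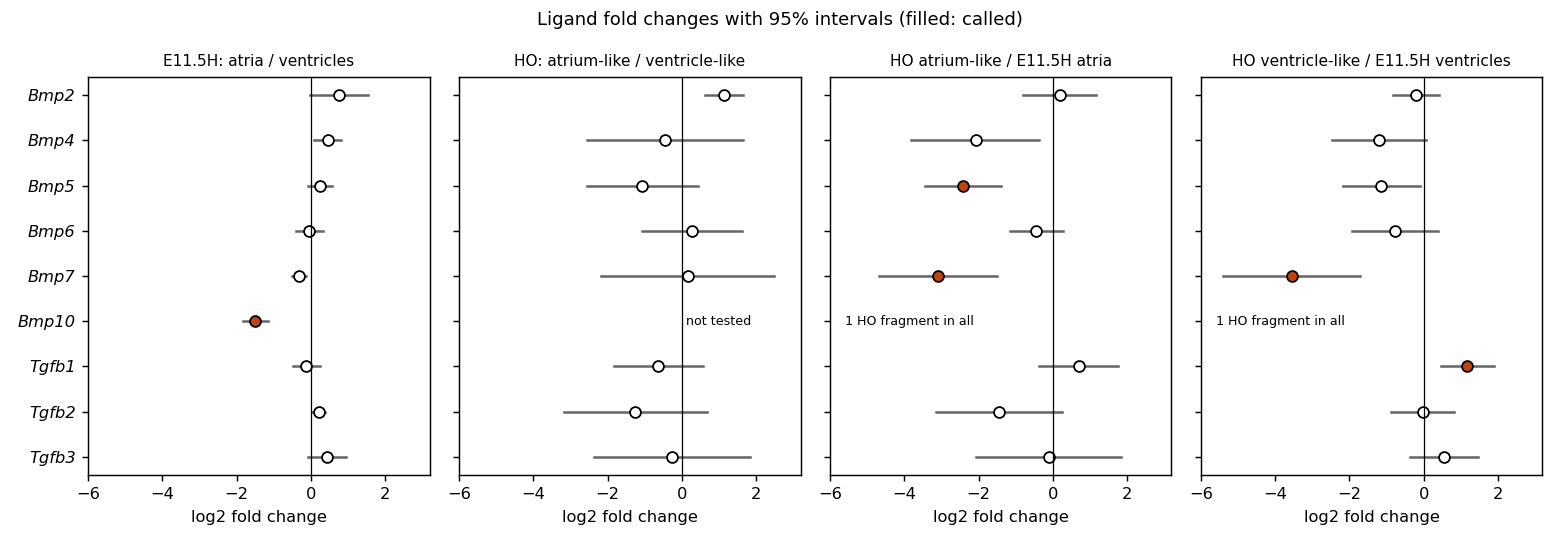
Log2 fold changes of the 9 ligands (points) with 95% intervals (lines) in 4 comparisons, filled where called. Bmp7 is called lower in both HO parts, Bmp5 in atrium-like parts and Bmp10 in atria of E11.5H, Tgfb1 is called higher in ventricle-like parts, and Bmp10 has no plotted value where HOs held 1 fragment in all.

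No ligand was called for a chamber difference that differed between hearts and HOs. In this interaction 0 of 9 were called by edgeR or DESeq2, and edgeR called 0.152% of 16494 genes. At an unadjusted edgeR p under 0.05 there were 0 of the 9, beside 1928 of all genes. Bmp10 is among the 9 through its heart counts only. With 1 fragment in all in each HO group, its value (1.65, SE 1.56) cannot show whether its chamber difference differed. The 95% intervals were wide, from -3.02 to 1.20 for Bmp4, from -3.31 to 0.47 for Tgfb2 and from -2.65 to 0.08 for Bmp5 on the log2 scale, so large differences were not excluded by them.

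The spread among HO libraries was not the same for all ligands. The highest of the 6 values was 2.31 times the lowest for Bmp2, 3.92 times for Tgfb1, 6.93 times for Bmp7, 10.6 times for Bmp4, 13.2 times for Tgfb3 and 26.8 times for Tgfb2, while in the 6 heart libraries it was between 1.28 (Bmp6) and 4.16 (Bmp2) times for all ligands. All 3 Tgfb ligands were higher in the same 3 HO libraries, atrium-like replicate 2 and ventricle-like replicates 1 and 2. Tgfb2 stood there at 12.3, 13.7 and 26.9 FPKM, against 1, 6.81 and 9.7 in atrium-like replicates 1 and 3 and ventricle-like replicate 3. In the same order of libraries, the mean log2 CPM of 10 cushion and fibroblast mesenchyme markers was 8.34, 8.04 and 7.77 against 6.55, 7.01 and 5.62. That of 10 macrophage markers was 6.23, 5.52 and 5.90 against 4.80, 2.45 and 3.17. That of 10 neural markers was 3.31, 2.87 and 5.60 against -1.17, -0.05 and 0.28. That of 6 smooth muscle markers was 6.14, 6.38 and 6.14 against 5.05, 4.34 and 5.14. That of 10 endothelial and endocardial markers was 4.59, 1.52 and 4.06 against 1.26, 1.47 and 0.70. That of 10 skeletal muscle markers was 3.61, -0.98 and 3.21 against -1.48, -1.71 and -1.20. That of the 12 liver and visceral endoderm markers ran the other way, at 4.83, 3.52 and 0.76 against 9.06, 8.64 and 7.82, and so did 12 gut epithelium markers, at 6.28, 4.51 and 1.30 against 7.84, 7.87 and 7.21. The cardiomyocyte, epicardial, cartilage and erythroid lists did not separate the HO libraries in this way. Bmp7 divided the libraries in the opposite way to the Tgfb ligands. It stood at 1.71, 2.57 and 1.6 FPKM where these were higher, against 8.71, 3.58 and 11.1 FPKM. Bmp7 thus ran with the endoderm and gut lists. It ran opposite to the mesenchyme, macrophage, neural, smooth muscle, endothelial and skeletal muscle lists. The part of these other cell types in the ligand values was not tested.

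**Figure D4:**
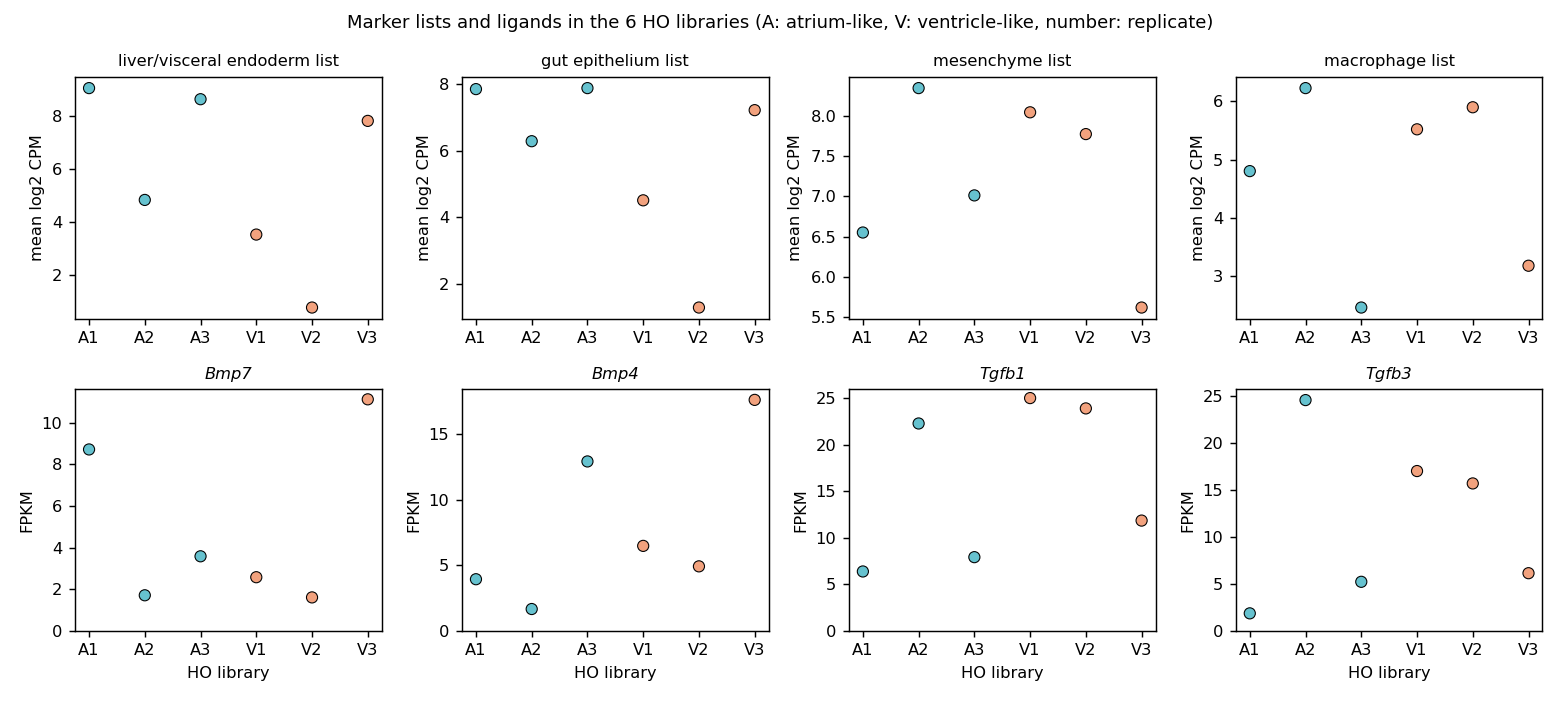
The 6 HO libraries (A, atrium-like; V, ventricle-like; number, replicate) with the mean log2 CPM of 4 marker lists in the upper row and the FPKM of Bmp7, Bmp4, Tgfb1 and Tgfb3 in the lower row. Tgfb1 and Tgfb3 are high and Bmp7 is low in A2, V1 and V2, where the mesenchyme list is at 7.77 to 8.34 and the endoderm list at 0.76 to 4.83. Tgfb2, which is not plotted, is also higher in A2, V1 and V2. Further lists that are also higher in A2, V1 and V2, among them the neural and smooth muscle markers, are not plotted.

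Among the receptors, the only one called by edgeR in both HO parts was Tgfbr2, the type II receptor for TGF-beta. It stood at 8.75 ± 1.48 FPKM in atria and 41.3 ± 3.54 in atrium-like parts (log2 fold change 2.42, SE 0.20, edgeR adjusted p = 0.00152), and at 7.98 ± 0.605 in ventricles and 25.8 ± 5.22 in ventricle-like parts (log2 fold change 1.60, SE 0.18, edgeR adjusted p = 0.00318). Its partner Tgfbr1 was not called, at log2 fold changes of -0.84 and -0.02 (edgeR adjusted p = 0.204 and 0.981). Of the 7 type I receptors, Acvr1b, an activin receptor, was called higher (log2 fold change 1.94) and Acvr1c, a Nodal and activin receptor, lower (-3.67) in atrium-like parts. None was called in ventricle-like parts. EdgeR called 24.8% and 18.9% of all genes in these 2 comparisons. In ventricle-like parts 3 type I receptors had an unadjusted edgeR p under 0.05, near the share of all genes (6467 of 15094). DESeq2 called 1 of the 7 there, beside 3742 of 15094 genes. Acvr1c was also the only receptor called between the heart chambers, at 2.07 ± 0.169 FPKM in atria and 0.125 ± 0.114 in ventricles. The main BMP type I receptor Bmpr1a stood at 22.5, 22.7, 22.1 and 30.8 FPKM on average in atria, ventricles, atrium-like and ventricle-like parts and was not called in any comparison. The BMP type II receptor Bmpr2 stood at 3.68, 3.17, 4.59 and 4.7 FPKM and was not called either. Amhr2, the receptor for anti-Müllerian hormone, was called lower in atrium-like parts, at 0.109 ± 0.0402 against 0.745 ± 0.264 FPKM. The lower values of Acvr1c and Amhr2 turned sign with the cardiomyocyte scaling (0.50 and 1.09, neither called). By edgeR the remaining receptors were not called in any comparison. DESeq2 called 3 of 7 type I receptors in atrium-like parts against atria, beside 4794 of 15418 genes. It called 2 of 5 type II receptors in ventricle-like parts against ventricles, beside 3742 of 15094 genes. With so few receptors these counts are not read as a result. Acvr1 and Acvrl1, type I receptors that also carry BMP signals, stood at 8.56, 8.52, 7.97 and 14.2 FPKM and at 1.31, 0.706, 2.64 and 3.1 FPKM on average in the same order of groups. Bmpr1b stood at 0.151 to 0.534 FPKM. The type II receptors for activins, Acvr2a and Acvr2b, stood at 5.75, 4.54, 5.65 and 6.07 FPKM and at 5.17, 4.32, 2.07 and 1.92 FPKM. In atrium-like and ventricle-like parts Acvrl1 (log2 fold changes 1.16 and 2.03) and Acvr1b (1.94 and 0.91) were higher without overlap with the matching hearts. Acvr2b (-1.13 and -1.26) was lower in both without overlap. None of these genes was called by edgeR in both parts.

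Of the 7 co-receptors, Tdgf1, a co-receptor for Nodal, was called higher in both HO parts, at 1.68 ± 0.748 FPKM in atrium-like and 4.9 ± 4.86 in ventricle-like parts against 0.00513 ± 0.00889 and 0.0324 ± 0.0561 in the hearts. Hjv, a BMP co-receptor, was called lower in atrium-like parts, at 1.85 ± 1.65 against 12.1 ± 1.38 FPKM, and Tgfbr3, which presents TGF-beta to its receptors, lower in ventricle-like parts, at 4.2 ± 1.34 against 11.9 ± 1.73 FPKM. Both turned sign with the cardiomyocyte scaling. Rgma, another BMP co-receptor, was called higher in ventricle-like parts (log2 fold change 1.58, edgeR adjusted p = 0.0354). In all, 1 co-receptor was called higher and 1 lower of 6 tested in atrium-like parts, and 2 higher and 1 lower of 7 in ventricle-like parts. Of all genes 24.8% and 18.9% were called in either direction.

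None of the 6 Smad genes was called in any comparison with edgeR or DESeq2. At an unadjusted edgeR p under 0.05 there were 1 and 2 of them in the atrium-like and ventricle-like comparisons. Of all genes, 6838 of 15418 and 6467 of 15094 were under that p, so these counts do not stand out. Over the 96 other pathway genes, 22 of 86 tested were called higher in atrium-like parts (25.6%, beside 16% of all genes) and 7 lower (8.14%, beside 8.81%). In ventricle-like parts 27 of 85 were called higher (31.8%, beside 11.6%) and 4 lower (4.71%, beside 7.35%). With the cardiomyocyte scaling, an alternative chosen after seeing the data, all 22 and all 27 stayed called higher. None of the 7 and 4 stayed called lower, and 5 and 4 of these turned sign. That outcome was largely set by the scaling, which shifted all genes upward by a median of 3.75 and 2.86. Under it 14053 of 15418 and 13627 of 15094 genes were called higher, so it does not test either set. Between the chambers of E11.5H 7 of 79 were higher and 8 lower, where 4.9% of all genes were called in either direction. Between the parts of HOs 0 of 83 were called by edgeR or DESeq2. There 3 had an unadjusted edgeR p under 0.05, beside 889 of 15703 genes.

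Extracellular BMP antagonists bind ligands and keep them from their receptors. Of 12 tested in ventricle-like parts, 6 were called higher (among them Fst, Grem1, Nbl1 and Nog), beside 11.6% of all genes. Of 13 in atrium-like parts, 3 were called higher (among them Fstl3 and Nbl1) and 1 lower (Sost). These atrium-like counts were near the shares of all genes, 16% higher and 8.81% lower. Grem1, gremlin, stood at 3.04 ± 1.75 FPKM in ventricle-like parts and was at 0 in all 3 ventricular libraries. Sostdc1 stood at 2.79 ± 1.39 against 0.00644 ± 0.0112 FPKM. Sost stood at 0.0871 ± 0.0799 FPKM in atrium-like parts against 3.42 ± 0.395 in atria. Between the heart chambers, Fst, follistatin, a binder of activins and some BMPs, was higher in atria (12 ± 1.56 against 1.21 ± 0.0726 FPKM, log2 fold change 3.25, edgeR adjusted p = 1.54e-06) and the related Fstl3 higher in ventricles (log2 fold change -1.71, edgeR adjusted p = 4.87e-04).

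The other ligands of the superfamily included 5 called higher in each HO part, of 16 and 15 tested. Of all genes, 16% were called higher in atrium-like parts and 11.6% in ventricle-like parts. Gdf15, a stress-induced member, stood at 20 ± 15.5 FPKM in atrium-like and 24.5 ± 9.17 in ventricle-like parts against 0.0475 ± 0.0318 and 0.427 ± 0.0507 in the hearts. These means were above that of every Bmp and Tgfb ligand in the same group. Inhbb, an activin subunit, stood at 2.34 ± 1.7 FPKM in atrium-like parts against 0.137 ± 0.104 in atria. Gdf10 was higher in atria than in ventricles, at 8.39 ± 6.24 against 0.0753 ± 0.0525 FPKM.

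TGF-beta is secreted in a latent form held by LTBP and fibrillin proteins and released by integrins. Of these 12 genes 5 were called higher in both HO parts (Itgav, Itgb6, Lrrc32, Ltbp2 and Ltbp3). The shares of all genes called higher were 16% (atrium-like) and 11.6% (ventricle-like). Itgb6, an epithelial integrin subunit that activates TGF-beta, stood at 11.7 ± 6.66 FPKM in atrium-like and 9.58 ± 11.4 in ventricle-like parts, and at 0 and 0.0061 ± 0.0106 in atria and ventricles. Fbn2, fibrillin 2, was lower in both, at 3.59 ± 2.68 against 29.5 ± 0.973 FPKM (log2 fold change -2.93) and 8.2 ± 2.7 against 33.9 ± 0.827 (-2.15), and these turned to 0.67 and 0.85 with the cardiomyocyte scaling. Ltbp1 and Ltbp4 were called lower in ventricle-like parts and likewise turned sign, to 1.37 and 1.76. Between the heart chambers Thbs1 and Ltbp4 were higher in ventricles, at log2 fold changes of -1.32 and -1.07, which were inside the limit at -0.71 and -0.46 with that scaling.

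Genes known to respond to BMP were called for 2 higher (Hamp and Tbx3) and 1 lower (Id2) of 12 in atrium-like parts, a share near the 24.8% of all genes called there, and for 5 higher (Hamp, Id4, Msx2, Tbx2 and Tbx3) of 12 in ventricle-like parts, where 11.6% of all genes were called higher. Id2 stood at 111 ± 16.1 FPKM in atrium-like parts against 276 ± 30.4 in atria, and its log2 fold change of -1.14 turned to 2.63 with the cardiomyocyte scaling. Hamp, the liver hormone hepcidin, stood at 3.85 ± 2.95 and 3.6 ± 1.75 FPKM in HO parts, which also held liver and visceral endoderm transcripts. Genes known to respond to TGF-beta were called higher for 4 of 9 in atrium-like parts (among them Col1a1, Pmepa1 and Tgfbi), beside 16% of all genes. In ventricle-like parts 3 of 9 were called higher (among them Col1a1 and Tgif1), beside 11.6% of all genes. None was called lower in either part. Col1a1 is also a marker of mesenchyme, whose list was raised in some HO libraries as given above.

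The genes most like each ligand were found by the root mean square (RMS) difference of centred log2 CPM over the 12 libraries, among 13164 genes. For Bmp7 they were Cabcoco1, Mylk3 and Doc2g, at RMS differences of 0.49, 0.59 and 0.61, beside 2.06 for Bmp7 about its own mean. Mylk3, a cardiac myosin light chain kinase, stood at 89.2 and 106 FPKM in atria and ventricles and 8.99 and 15.1 in the HO parts. For Bmp10 the nearest was Irx6, at 0.68 beside 3.70, and then Wnt9b at 0.70. For Tgfb1 they were Slc4a7, Pqlc1 and Plekho2, at 0.19, 0.25 and 0.25 beside 0.65. For Bmp4 they were Klhl38, Ppm1k and Grb14, at 0.44, 0.45 and 0.51 beside 1.30. For Bmp5 they were Tmem246, E130307A14Rik and Slc9a9, each at 0.36 beside 1.13. For Bmp6 they were Ntn3, Atrnl1 and Ptk2, at 0.27, 0.28 and 0.29 beside 0.56. For Tgfb2 they were Plcb4, Fam171a2 and Pkia, at 0.29, 0.29 and 0.32 beside 1.09. For Tgfb3 they were Rel, Timp2 and Tacc1, at 0.29, 0.33 and 0.36 beside 0.86. For Bmp2 they were Tbc1d8b, Zfp995 and Setdb2, at 0.41, 0.42 and 0.42 beside 0.61, the least alike in proportion to the ligand's own spread.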

How the data were processed

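The authors aligned reads with STAR to mm10 (per the submitters' processing notes) and deposited 1 table with an estimated count and an FPKM value per gene in every library. The counting tool, annotation release, versions and use of strand are not given in the sources used here. Of the deposited estimated counts 23.8% were not whole, and all were rounded. The deposited FPKM was not rescaled. Each pair of groups was fitted separately with edgeR 4.0.16 (R 4.3.3) after TMM scaling and filterByExpr with a minimum count of 10, and the interaction was fitted on 12 libraries. The fit was tested on simulated data. DESeq2 1.42.0, its size factors in edgeR, no low-count filter, 1 fit of all libraries, a replicate block, scaling to cardiomyocyte markers, no fold limit and leaving out each library were the alternatives. Log2 CPM used a prior count of 2.

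The members and gene lists were chosen with earlier results of these data known. The rule for naming took all members and receptors, at most 3 called genes in each direction of each other list and comparison, and the 3 genes nearest to each member among those with at least 5 CPM in a group. Not every gene that the rule allowed in the other lists is given, and the further genes in brackets were named after their values were seen. The study describes biological triplicates, and p-values measure only the spread between these samples. No columns of other samples were present. Some genes of the lists are counted but not reported here by name.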

Additional observations from a re-analysis of the deposited data

How the results depend on the processing

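Calls on the ligands were sensitive to how libraries were scaled. Scaling to cardiomyocyte markers shifted fold changes over all genes by a median of 0.61 (E11.5H chambers), 1.52 (HO parts), 3.75 (atrium-like against atria), 2.86 (ventricle-like against ventricles) and 0.91 (interaction) on the log2 scale, and changes below it are lower relative to that shift. Under it 3, 1, 6 and 9 ligands and 2083, 1354, 14156 and 13705 genes were called in the first 4 comparisons, of which 1918, 1348, 14053 and 13627 were higher, and 9 genes in the interaction. Log2 fold changes of ligands that turned sign under it were 0.58 for Bmp6, 0.29 for Bmp7 and 0.51 for Tgfb1 between heart chambers, 1.19 for Bmp4, 0.39 for Bmp5, 0.64 for Tgfb1 and 0.80 for Tgfb3 between HO parts, 1.45 for Bmp4, 1.33 for Bmp5, 3.25 for Bmp6, 1.10 for Bmp7, 1.89 for Tgfb2 and 3.28 for Tgfb3 in atrium-like parts, 2.65 for Bmp2, 1.31 for Bmp4, 1.81 for Bmp5, 2.28 for Bmp6 and 3.04 for Tgfb2 in ventricle-like parts, and 0.14 for both Bmp4 and Tgfb1 in the interaction. One fit of all 12 libraries called 0 ligands and 30 genes between heart chambers, and left Tgfb1 in ventricle-like parts at 1.19 (adjusted p = 0.0504). With no fold limit 2 ligands and 1982 genes were called between heart chambers and 4462 genes in ventricle-like parts. DESeq2 called 1 ligand and 56 genes between HO parts and 438 genes in the interaction. Same-numbered replicates did not deviate together in every pair (r from 0.01 to 0.04 in hearts and 0.02, 0.59 and 0.36 in HOs), so the numbers were not taken as pairs. The methods describe HOs cut into both parts, so HO parts may be paired, but the labels do not say whether same numbers share an HO. With a replicate block the SE between HO parts fell from 0.87 to 0.38 for Bmp4 and from 0.96 to 0.80 for Bmp7, and 0 genes were called. The replicate block called 5 genes in the interaction, and under it Tgfb1 in ventricle-like parts was at 1.11 (adjusted p = 0.0576).

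Leaving out 1 library at a time gave 1662 to 5495 genes called in atrium-like parts, 1116 to 3725 genes and 1 to 4 ligands in ventricle-like parts, and 2 to 216 genes in the interaction, the highest without atrium-like replicate 2. Without 1 library the sign of uncalled ligands turned within these ranges: -0.13 to 0.04 for Bmp6 and -0.22 to 0.04 for Tgfb1 between heart chambers, -1.51 to 0.31 for Bmp4, -0.05 to 0.92 for Bmp6, -0.86 to 1.44 for Bmp7 and -1.64 to 0.22 for Tgfb3 between HO parts, -0.11 to 0.76 for Bmp2 and -1.54 to 0.33 for Tgfb3 in atrium-like parts, -0.52 to 0.20 for Tgfb2 in ventricle-like parts, and -0.50 to 1.75 for Bmp7 and -0.30 to 3.48 for Bmp10 in the interaction. No fold change of a called ligand turned sign without 1 library. Where no cause is named, it was not tested.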

Other observations

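Other cell type markers also differed between the libraries that carry the ligand values. The summed CPM of 10 erythroid markers was 5088 to 9520 in atria and 8130 to 53765 in ventricles, against 2.27 to 21.9 and 7.63 to 17.2 in atrium-like and ventricle-like parts. The 3rd gene nearest to Bmp10 in pattern was a row of the alpha-globin gene Hba-a2, which stood at 14.4 and 44.5 FPKM in atria and ventricles and at 0 in both HO parts. In mean log2 CPM, neural markers ranged from 0.28 to 5.60 in ventricle-like parts and from 0.45 to 1.11 in atria. Epicardial markers were at 5.68 to 5.73 in atria, 4.70 to 5.19 in ventricles, 3.43 to 4.28 in the atrium-like group and 1.88 to 6.35 in the ventricle-like group. Smooth muscle markers were at 7.16 to 7.28, 5.71 to 6.51, 4.34 to 6.14 and 5.14 to 6.38 in the same order.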
